A study of Sus scrofa with 32 samples.

Results

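The 38 genes described here encode structural proteins of the sarcomere and of the Z-disc. They were taken as a fixed list of gene symbols, chosen with earlier results of these data known. All 38 were found among the 30413 loci of the expression table. By their place in the sarcomere, 12 were set down as thick filament and M-band genes, 9 as thin filament genes and 17 as Z-disc genes. The table gives FPKM (fragments counted on a gene, scaled by transcript length and by library size) in the longissimus dorsi, the loin muscle, of 32 pig fetuses taken at day 77 of gestation. The 16 Iberian fetuses were purebred, and the 16 crossbred fetuses had an Iberian mother and a Large White father. Each genotype comprised 8 females and 8 males. All fetuses developed in pure Iberian sows kept on restricted feed and inseminated with mixed semen of both breeds, so that both genotypes could share a uterus. The leading 4 digits of each fetus name are taken here to number its sow, a reading that the labels do not spell out, and they give 7 sows, 5 of them with both genotypes. Fetuses of one sow share a litter and are not fully independent. The study selected fetuses of divergent body weight, and weight is not analysed here because no sample label gives it.

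The sarcomere is the contractile unit of striated muscle. Myosin thick filaments are held in register at the M-band, actin thin filaments are anchored at the Z-disc, and the giant protein titin spans from one to the other. Many of these proteins come from small gene families whose members are used in embryonic, slow, fast or cardiac muscle, and the fetal loin is a tissue in which myotubes are still turning into mature fibres.

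Upstream sequences are shown for 3 genes on which the results below turn. These are TTN and NEB, the pair with the closest co-variation, and IGFN1, the only gene that passed the genotype test. Each is the 250 bases before the RefSeq gene start in Sscrofa11.1, written 5′ to 3′ on the strand of the gene. Capitals mark matches on either strand to an E-box (CANNTG, the sequence bound by myogenic factors), an MCAT element (GGAATG), a MEF2 motif or a CArG box. No marked matches overlap in these 3 windows.
TTN (chr15:84501321-84501570, minus strand): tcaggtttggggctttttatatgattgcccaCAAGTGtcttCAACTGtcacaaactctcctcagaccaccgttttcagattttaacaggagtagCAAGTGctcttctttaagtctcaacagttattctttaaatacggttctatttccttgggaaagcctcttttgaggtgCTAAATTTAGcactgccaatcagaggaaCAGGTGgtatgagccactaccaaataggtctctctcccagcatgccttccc
NEB (chr15:545937-546186, plus strand): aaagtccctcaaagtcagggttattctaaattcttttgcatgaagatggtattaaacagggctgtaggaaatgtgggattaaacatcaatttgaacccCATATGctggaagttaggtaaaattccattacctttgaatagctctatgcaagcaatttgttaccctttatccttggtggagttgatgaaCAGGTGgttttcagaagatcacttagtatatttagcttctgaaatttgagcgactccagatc
IGFN1 (chr10:23628717-23628966, plus strand): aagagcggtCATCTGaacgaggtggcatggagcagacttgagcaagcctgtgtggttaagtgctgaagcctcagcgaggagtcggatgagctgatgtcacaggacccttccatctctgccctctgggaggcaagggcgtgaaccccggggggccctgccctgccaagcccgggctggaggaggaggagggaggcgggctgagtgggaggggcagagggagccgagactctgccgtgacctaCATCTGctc
TTN has E-boxes and the only MEF2 match of these windows, and the NEB and IGFN1 windows hold E-boxes alone. Over all 38 genes, an E-box occurred in 31 windows (81.6%) against 61.9% of the 19531 RefSeq gene windows of the same length. An MEF2 match occurred in 7 (18.4%) against 2.55%, an MCAT match in 5 (13.2%) against 10.3% and a CArG match in 2 (5.26%) against 1.31%. A match of letters is a description and not a binding site.

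The libraries carried skeletal muscle RNA. All 8 matched markers of skeletal muscle fibres exceeded a mean of 0.5 FPKM, and of 5 matched cardiac markers 2 did so. These were TNNT2, a troponin that developing skeletal muscle also uses, at a mean of 238 FPKM, and TNNI3 at 2.64 FPKM, while NPPA, NPPB and NKX2-5 did not exceed a mean of 0.00515 FPKM. The TNNT2 locus is merged with LAD1 and the TNNI3 locus with an unnamed Ensembl gene, so these values may not be those of the troponins alone. The fibre markers PYGM, TNNT3 and CASQ1 also lie in merged loci. The relative depth of the libraries, estimated from the lowest FPKM values, ranged from 0.71 to 1.41 and its median was 0.94 in Iberian and 1.05 in crossbred fetuses. Among the libraries, 3 Iberian females stood apart. Averaged over the 38 genes, fetus 1417F3L lay 1.34 below the mean on the log2 scale, 1410F5L 0.83 below and 1404F2L 0.82 below, and the next lowest fetus lay 0.36 below. The same fetuses had the highest summed adipocyte markers, at 811, 449 and 637 FPKM, where the median was 99.8 FPKM over the Iberian and 97.9 FPKM over the crossbred fetuses. In 1417F3L the summed markers of macrophages (508 FPKM, Iberian median 248), Schwann cells (76.1 FPKM, median 25.4) and erythroid cells (1034 FPKM, median 337) were also the highest of the Iberian fetuses. Much of the macrophage sum is CD68 (265 FPKM in 1417F3L), whose locus is merged with EIF4A1 and other genes and may not measure CD68 alone. The markers CSF1R, MRC1, C1QA, C1QB, AIF1 and CD14 were also highest in 1417F3L, and CD163 was highest in 1340F8L. Of the Iberian fetuses 1410F5L had the highest fibroblast sum (14921 FPKM, median 9727). The fibroblast markers DCN and LUM, however, were highest in 1417F3L, whose sum ranked 23 of 32. In that sum, COL1A1 and COL3A1 each had a lowest value of 0 FPKM. The part of these cell types in the muscle results was not tested, and in whole muscle, fewer fibres and less RNA per fibre cannot be told apart. Results are therefore given with and without these fetuses. Since they were picked for their low values of the same genes, leaving them out raises the Iberian female level by construction, and the direction of that shift carries no information. It also narrows the range that these genes share, which tends to lower the correlations among them.

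Thick filament and M-band genes accounted for 49.0% of the summed FPKM of the 38 genes. MYLPF, the fast regulatory myosin light chain, was the most abundant of all, at 11949 ± 4486 FPKM (SD, n = 32). Its values were 5869 to 20948 FPKM (median 9971) in Iberian and 6167 to 21018 FPKM (median 12309) in crossbred fetuses, and the genotypes overlapped over most of this range. The assembled locus that carries its name covers 270083 bases, against 2943 for the RefSeq gene. MYL1, the fast essential light chain, ranged from 1428 to 4919.8 FPKM (median 2990.1) in Iberian and from 1987 to 4989 FPKM (median 3484) in crossbred fetuses. MYBPC1, the slow myosin-binding protein C, ranged from 268 to 1077 FPKM (median 908) and from 774 to 1429 FPKM (median 1040.3), respectively. MYL4, the essential light chain of embryonic muscle and of the atria, had 939.8 ± 434 FPKM (SD, n = 32), close to MYBPC1 and well above MYL3, the slow and ventricular essential light chain, which had 137 ± 65.2 FPKM. MYL2, the slow regulatory light chain, had 292 ± 115 FPKM. The fast chains were thus the main light chains, and titin (TTN) followed at 318 ± 116 FPKM. The myomesins, which crosslink the M-band, ranked MYOM2 (293 FPKM), MYOM1 (142 FPKM) and MYOM3 (122 FPKM). MYBPC2, the fast myosin-binding protein C, was almost the lowest of the 38 at 10.6 ± 6.38 FPKM (SD, n = 32), and MYBPH, a related protein, had 221 ± 143 FPKM.

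Thin filament genes accounted for 35.4% of the summed level, nearly all of it actin. ACTA1, the skeletal alpha-actin, ranged from 3400.3 to 12514 FPKM (median 5888) in Iberian and from 3241 to 13390.5 FPKM (median 6692) in crossbred fetuses. ACTC1, the cardiac alpha-actin that developing skeletal muscle also uses, ranged from 1846 to 8674 FPKM (median 4781) and from 3367 to 8933 FPKM (median 6463), respectively. ACTA1 exceeded ACTC1 in 27 of 32 fetuses. No stretch of 76 bases, the read length, was identical between the coding sequences of these actins, and the longest shared stretch was 44 bases. KLHL41, a kelch protein that stabilises nebulin, ranged from 321 to 1157 FPKM (median 855) and from 685 to 1311 FPKM (median 925), respectively, but its locus is merged with BBS5. The other thin filament genes were much lower. Nebulin (NEB), which runs along the thin filament, had 87.4 FPKM, LMOD3 and LMOD2, which nucleate actin, had 88.1 and 30.7 FPKM, and the pointed-end caps TMOD1 and TMOD4 had 59.1 and 26.3 FPKM. The TMOD4 locus is merged with LYSMD1 and VPS72 and covers 34338 bases, against 4967 for the RefSeq gene, so its values may not be those of TMOD4 alone. KLHL40, which stabilises nebulin and LMOD3, had 44.9 FPKM.

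Z-disc genes accounted for 15.6%. Desmin (DES), the intermediate filament that links neighbouring Z-discs, ranged from 1028 to 3734 FPKM (median 1929) in Iberian and from 1083 to 4776 FPKM (median 2337) in crossbred fetuses. The assembled locus that carries the name DES covers 97843 bases, against 6888 for the RefSeq gene. MYOZ1, the fast calsarcin, ranged from 379.6 to 1615 FPKM (median 711) and from 449.7 to 1772 FPKM (median 965), respectively, in a locus merged with SYNPO2L. ACTN2, the alpha-actinin of all fibres, ranged from 207 to 767 FPKM (median 574) and from 490.2 to 960.5 FPKM (median 643), respectively. ACTN3, its fast-fibre relative, was far lower at 25.9 ± 20.4 FPKM (SD, n = 32). CSRP3 (muscle LIM protein) and LDB3 (which binds alpha-actinin) had 551 and 469 FPKM. TCAP, which caps titin at the Z-disc, had 247 ± 225 FPKM, myotilin (MYOT) 187 FPKM and filamin C (FLNC) 117 FPKM. The MYOT locus is merged with PKD2L2 and covers 323560 bases, against 19851 for the RefSeq gene. MYOZ2, the slow calsarcin, and MYOZ3 had 108 and 78.3 FPKM, and the LIM proteins PDLIM5 and PDLIM3 had 144 and 74.4 FPKM. SMPX, a small muscle protein, had 74.4 FPKM, and the actin-binding Xin repeat proteins XIRP2 and XIRP1 had 35.0 and 27.1 FPKM. IGFN1, an immunoglobulin and fibronectin type III domain protein of the Z-disc, was the lowest of the 38 at 6.24 ± 4.86 FPKM.

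**Figure D1:**
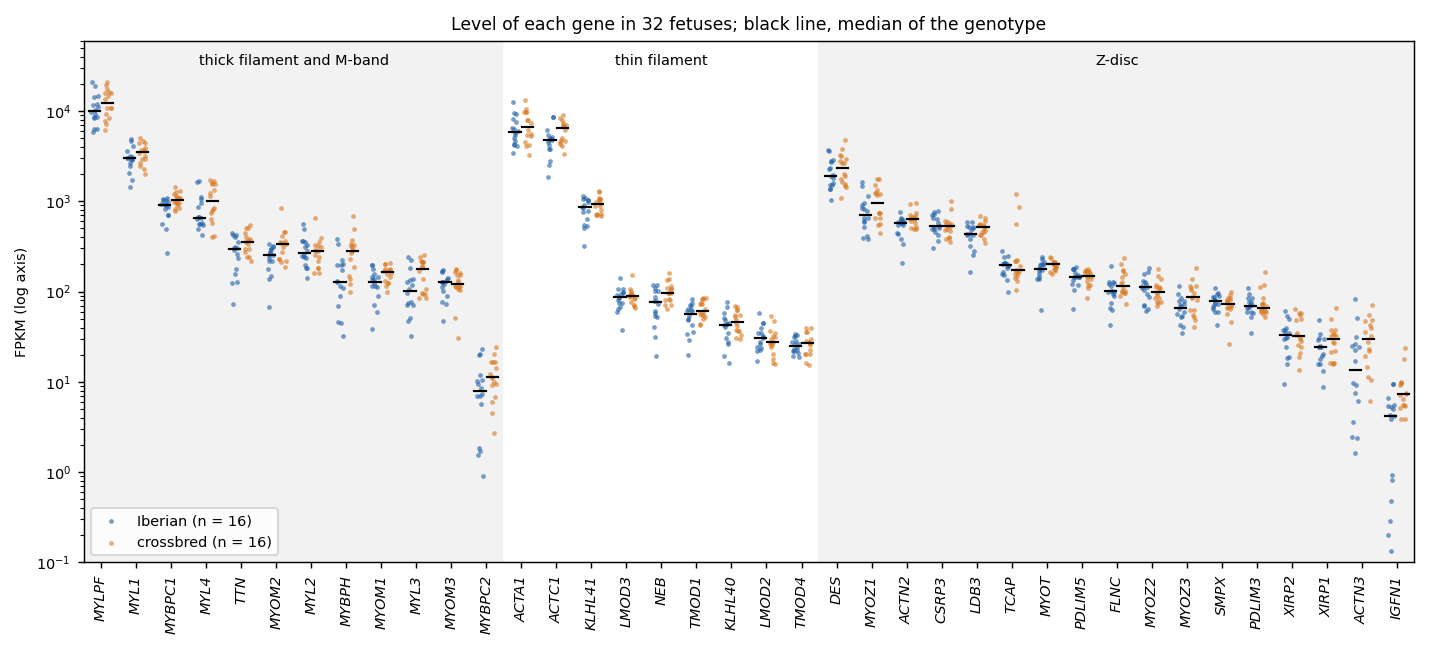
FPKM on a log axis (vertical) of 38 genes (horizontal) grouped by place in the sarcomere, with 1 point per fetus, blue for 16 Iberian and orange for 16 crossbred fetuses, and a black line at each median. MYLPF had the highest mean, 11949 FPKM, and IGFN1 the lowest, 6.24 FPKM, and 6 Iberian fetuses lay below 1 FPKM for IGFN1.

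Of the 38 genes, 24 had a mean over 100 FPKM and 8 a mean under 50 FPKM. Along the order of the means, the higher gene was higher in all 32 fetuses for only 5 of the 37 neighbouring pairs (MYLPF over ACTA1, ACTC1 over MYL1, DES over MYBPC1, LDB3 over TTN and TMOD1 over KLHL40). Many neighbours did not differ beyond their spread. MYBPC1 exceeded MYL4 in 18 fetuses, LMOD3 exceeded NEB in 16 and TCAP exceeded MYBPH in 16. The ratio of the highest to the lowest fetus had a median of 4.66 over the 38 genes. It was smallest for the merged locus of TMOD4 (2.55). The largest ratios were those of IGFN1 (177), ACTN3 (50.8), MYBPC2 (26.2) and MYBPH (21.5), the first 3 of which also had the lowest levels. Fetus 1417F3L was the lowest of all for 28 genes, and the crossbred male 1340F5L was the highest for 16.

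Between genotypes, most sarcomere genes had somewhat higher values in crossbred fetuses, but 1 of the 38 passed the test, IGFN1. A call required a fold of 1.3 or more and an adjusted p no higher than 0.05, which 1.36% of all 16750 loci tested reached (0.848% in the direction of crossbred). The log2 fold change, on the scale of FPKM plus 0.5, was above 0 for 33 of 38 genes, against 56.2% of all loci, with a median of 0.28 against 0.027. An unadjusted p under 0.05 was found for 14 genes, all with higher values in crossbred fetuses, where 10.7% of all loci reached it in this direction. With the sow as a block 2 genes had such a p, where 2644 of 16750 loci had one in either direction. Without the 3 low females 2 genes had one, where 1503 of 16715 loci did. By group, 11 of 12 thick filament and M-band genes (median 0.40), 8 of 9 thin filament genes (median 0.23) and 14 of 17 Z-disc genes (median 0.27) were higher. For all 38 genes the values of the genotypes overlapped. The genes varied together over the fetuses (median Pearson r of 0.56 over pairs, below). Counts of genes, here, for the further lists and between the sexes, are therefore not separate observations.

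IGFN1 ranged from 0.133 to 9.58 FPKM (median 4.24) in Iberian and from 3.85 to 23.5 FPKM (median 7.31) in crossbred fetuses. The low Iberian values came from 6 fetuses of 4 sows, all below 1 FPKM, and the lowest crossbred fetus had 3.85 FPKM. These 6 fetuses also had the 6 highest summed adipocyte markers of all fetuses, from 256 to 811 FPKM. The highest crossbred sum was 215 FPKM. The Iberian fetus next in adipocyte markers, 1404F7L (252 FPKM), had 3.86 FPKM of IGFN1. The part of adipocytes in the IGFN1 difference was not tested. Of the crossbred fetuses, 14 of 16 lay above the Iberian median. The locus lies on chromosome 10 from 23628691 to 23663545 (Sscrofa11.1). By limma the level in crossbred fetuses was 1.43 higher on the log2 scale, with a standard error of 0.38 and an adjusted p of 0.0453. The adjusted p lay close to the threshold, and the call was lost in 18 of 32 fits that left out a single fetus (1338F2L, 1338F4L, 1340F5L, 1340F8L, 1340F9L, 1401F8L, 1404F1L, 1404F2L, 1404F3L, 1404F5L, 1404F7L, 1410F5L, 1412F2L, 1412F5L, 1417F2L, 1417F3L, 1417F5L and 1417F9L), in which the log2 fold change was 1.27 to 1.46 and the adjusted p from limma was 0.0505 to 0.0837. With the sow as a block, a fit whose genotype difference comes only from the 5 sows with both genotypes, the adjusted p was 0.189. Without the 3 low Iberian females the log2 fold change was 0.94 (adjusted p = 0.254). Within the 5 sows with both genotypes, the crossbred mean was higher in 4 (by 0.89 to 2.31 on the log2 scale) and lower in sow 1338, by 0.52.

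The next largest differences were those of ACTN3, MYBPH, MYL3 and MYBPC2, none of which was called. ACTN3 ranged from 1.61 to 81.8 FPKM (median 13.5) in Iberian and from 6.17 to 71.6 FPKM (median 30.0) in crossbred fetuses. Its Iberian values thus spanned the whole crossbred range, and the log2 fold change was 1.10 (95% interval 0.21 to 1.99, adjusted p = 0.178 from limma). MYBPH ranged from 32.1 to 385 FPKM (median 128) in Iberian and from 98.3 to 691 FPKM (median 283) in crossbred fetuses. Of the crossbred fetuses 14 of 16 exceeded the Iberian median, with a log2 fold change of 1.03 (95% interval 0.41 to 1.65, adjusted p = 0.0752), in a locus merged with CHI3L1. It was called without 1338F3L, without 1338F6L or without 1401F2L, with log2 fold changes of 1.12 to 1.14. MYL3 ranged from 32.0 to 239 FPKM (median 101) in Iberian and from 85.1 to 255 FPKM (median 177) in crossbred fetuses. Its log2 fold change was 0.63 (95% interval 0.15 to 1.12, adjusted p = 0.156). MYBPC2 ranged from 0.918 to 22.8 FPKM (median 7.97) in Iberian and from 2.74 to 24.0 FPKM (median 11.3) in crossbred fetuses, so that the groups overlapped. Its log2 fold change was 0.62 (95% interval -0.10 to 1.33, adjusted p = 0.362).

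For TTN, NEB and the most abundant genes no difference was called. The log2 fold change was 0.40 (adjusted p = 0.149) for MYBPC1, 0.54 (0.141) for NEB, 0.50 (0.198) for TTN and 0.39 (0.259) for ACTC1, all from limma. It was 0.22 (95% interval -0.18 to 0.62) for MYLPF, 0.20 (-0.12 to 0.52) for MYL1, 0.14 (-0.26 to 0.54) for ACTA1, 0.23 (-0.073 to 0.53) for KLHL41 and 0.15 (-0.25 to 0.55) for DES. These intervals include both 0 and a fold over the minimum of 1.3, so that no difference was detectable and one of that size lies inside each interval. It was 0.33 for ACTN2, 0.36 for MYOZ1 and 0.41 for MYOM1. The 5 genes with lower values in crossbred fetuses were LMOD2 (-0.15), SMPX (-0.14), MYOZ2 (-0.056), CSRP3 (-0.047) and MYL2 (-0.039), none of them called. LMOD2 ranged from 17.1 to 57.3 FPKM (median 30.8) in Iberian and from 15.6 to 54.3 FPKM (median 27.5) in crossbred fetuses, and MYOZ2 from 60.5 to 180.3 FPKM (median 111) and 68.6 to 179 FPKM (median 99.6). MYL2 and MYOZ2 are isoforms of slow fibres, as is MYL3, which had higher values.

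**Figure D2:**
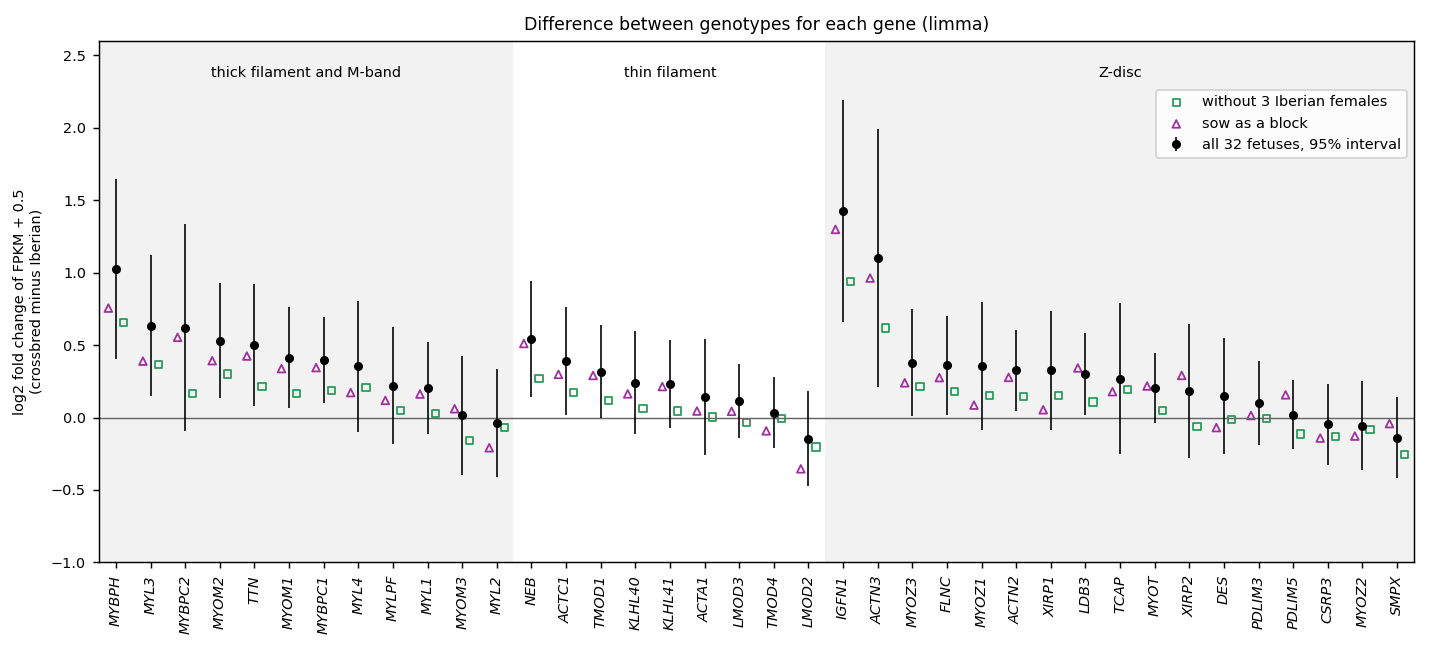
Log2 fold change of FPKM plus 0.5 (vertical, crossbred minus Iberian) for 38 genes (horizontal) grouped by place in the sarcomere. Black points and bars are the limma estimate over 32 fetuses with its 95% interval, green squares the estimate without 3 Iberian females and purple triangles the estimate with sow as a block. The median of the black points is 0.28 and that of the green squares 0.11, and IGFN1 has the highest point, 1.43.

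The size of the difference changed with the fetuses and the litters compared. Without 1417F3L, 1404F2L and 1410F5L the median log2 fold change was 0.11 with 26 of 38 genes higher, and without 1417F3L alone it was 0.21, a fall that the choice of these fetuses fixes. With the sow as a block it was 0.20 with 31 higher. With both changes at once, a setting added after seeing the data, it was -0.028 with 16 of 38 higher. Inside single sows the differences pointed both ways. In sow 1417 the crossbred mean was higher for 37 of 38 genes (median 0.97, 2 Iberian and 5 crossbred fetuses) and in sow 1404 for 29 (median 0.32, 4 and 1). In sow 1340 it was higher for 25 (median 0.17, 1 and 3), in sow 1401 for 14 (median -0.088, 3 and 2) and in sow 1338 for 5 (median -0.54, 1 and 3). The low females 1417F3L and 1404F2L belong to the sows with the highest medians. Adipocyte markers, summed, ranged from 49.8 to 811 FPKM among the Iberian and from 39.3 to 215 FPKM among the crossbred fetuses, and 11 of 12 were lower in crossbred fetuses (median -0.98, none called).

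**Figure D3:**
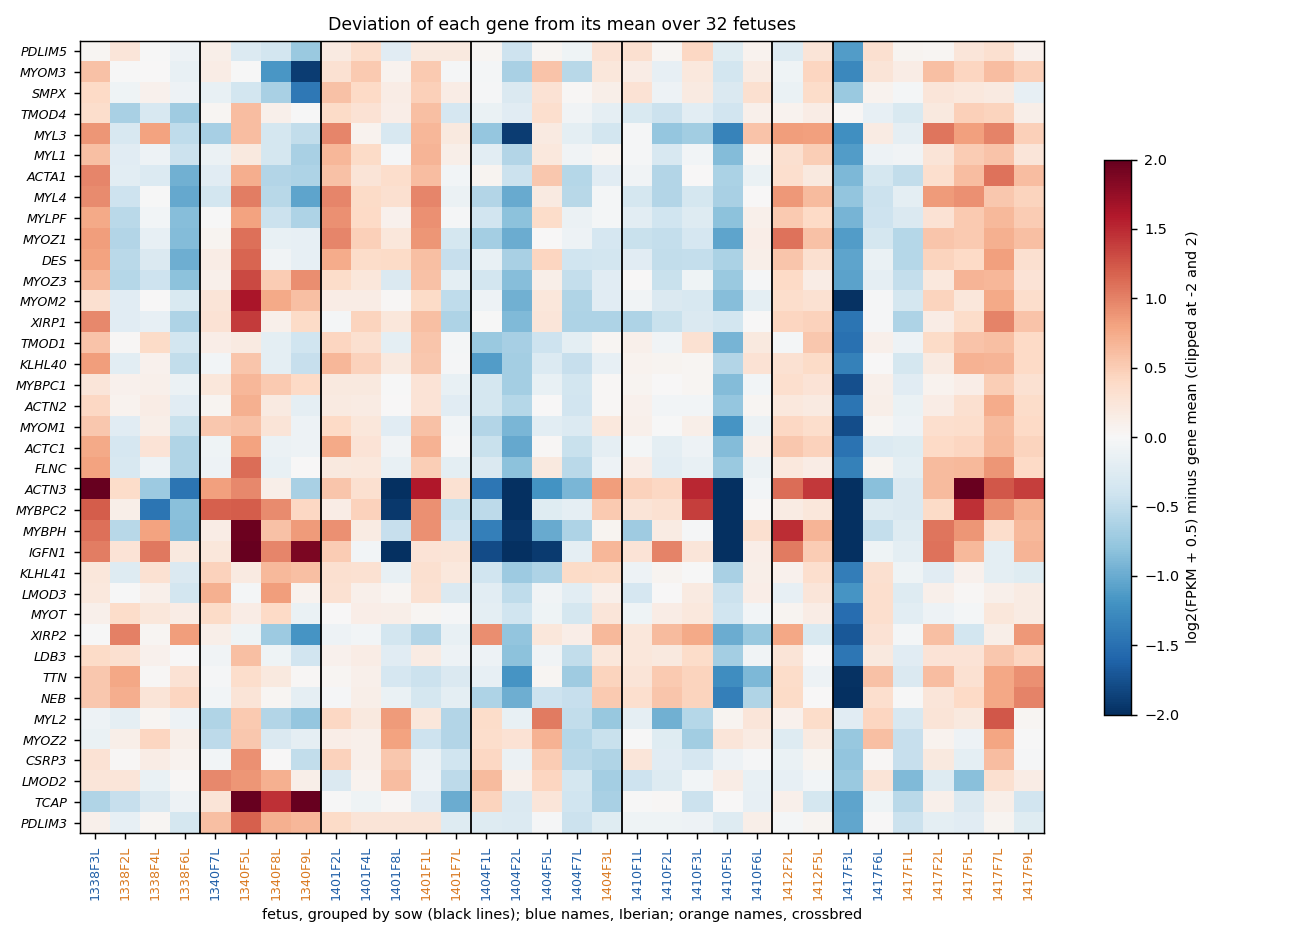
Deviation of log2(FPKM + 0.5) from the gene's mean (color, clipped at -2 and 2) for 38 genes (vertical, in clustering order) and 32 fetuses (horizontal), grouped by sow between black lines, with blue names for Iberian and orange names for crossbred fetuses. Fetuses 1417F3L, 1410F5L and 1404F2L are low for most genes, and TCAP is high in the 3 crossbred fetuses of sow 1340.

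Other sarcomere-associated genes, a second list, and the regulators of sarcomere genes were also mostly higher in crossbred fetuses. Of the 25 other sarcomere-associated genes (among them obscurin, the myosin kinase MYLK2 and the chaperone UNC45B), 22 had higher values in crossbred fetuses (median 0.32) and none was called. Of 12 regulators 10 were higher (median 0.32), and none was called. MYOD1, the myogenic determination factor, had a log2 fold change of 0.47 and MEF2A, a factor that binds the MEF2 motif, one of 0.40, while SRF, which binds the CArG box, had -0.020. All 8 skeletal muscle fibre markers were higher (median 0.41, none called). Without the 3 low females the medians were 0.099 for the other sarcomere-associated genes (20 of 25 higher), 0.23 for the regulators (8 of 12) and 0.17 for the fibre markers (7 of 8). With the sow as a block they were 0.24 (18 of 25), 0.32 (10 of 12) and 0.30 (7 of 8).

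Ratios between isoforms compare genes inside the same fetus. Of 8 ratios, 1 differed between genotypes after adjustment over the 8, that of MYL3 to MYL1. The log2 ratio ranged from -5.99 to -4.14 (median -4.89) in Iberian and from -5.09 to -3.78 (median -4.48) in crossbred fetuses. It overlapped, but 15 of 16 crossbred fetuses lay above the Iberian median, and the mean was 0.43 higher (permutation p = 0.00499, adjusted p = 0.0399). It was positive in 4 of 5 sows and close to 0 (-0.040) in sow 1338. With genotypes permuted within sows the adjusted p was 0.186, and without the 3 low females the difference was 0.34 (adjusted p = 0.167). Leaving out a single fetus lost the call in 15 of 32 cases (1338F4L, 1340F5L, 1340F7L, 1401F4L, 1401F8L, 1404F1L, 1404F2L, 1410F3L, 1410F5L, 1412F2L, 1412F5L, 1417F2L, 1417F3L, 1417F5L and 1417F9L), with permutation adjusted p up to 0.0796. The MYL3 locus (chromosome 13 from 29689750 to 29735740) is merged with an unnamed Ensembl gene, and the MYL1 locus lies on chromosome 15 from 113023620 to 113074313.

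The ratio of ACTC1 to ACTA1, the developmental against the adult skeletal actin, had a log2 range from -0.89 to 0.082 (median -0.36) in Iberian and from -0.74 to 0.24 (median -0.23) in crossbred fetuses. The crossbred mean was 0.25 higher overall (permutation p = 0.0241, adjusted p = 0.0963), which did not pass, and it was higher inside each of the 5 sows, by 0.14 to 0.48. It passed without 1410F2L or without 1417F7L (lowest adjusted p = 0.0371). ACTN2 over ACTN3 had a difference of -0.78 (adjusted p = 0.136), TMOD1 over TMOD4 one of 0.28 (adjusted p = 0.154) and MYOZ2 over MYOZ1 one of -0.41 (adjusted p = 0.164), all from permutation tests. The ratios MYL2 over MYLPF (-0.26), MYBPC1 over MYBPC2 (-0.22) and MYL4 over MYL1 (0.15) had adjusted p values between 0.237 and 0.438. For the ratios with MYL2, MYBPC1, ACTN2 and MYOZ2 as numerator the difference was negative inside sows 1401, 1404 and 1417 and positive inside sows 1338 and 1340. The ratio of MYL3 to MYL1 did not share this pattern, since it was positive inside sows 1401 (0.12), 1404 (0.0945) and 1417 (0.26).

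One sow stood apart for a small set of genes. TCAP reached 1199, 565 and 867 FPKM in the crossbred fetuses 1340F5L, 1340F8L and 1340F9L and 246 FPKM in their Iberian littermate 1340F7L. The 28 fetuses of the other sows ranged from 98.1 to 278 FPKM (median 179). The 3 crossbred values lay above every other fetus and the Iberian littermate did not. PDLIM3 was 164, 109, 117 and 113 FPKM in 1340F5L, 1340F7L, 1340F8L and 1340F9L, above the highest of the other fetuses (93.6 FPKM). LMOD2 had a median of 51.0 FPKM in these 4 and 27.5 FPKM in the others. In the other direction, MYOM3 had a median of 82.3 against 128 FPKM and SMPX a median of 50.9 against 78.9 FPKM, and 1340F9L was the lowest of all fetuses for both. Fetus 1340F5L also had the highest summed erythroid markers (3395 FPKM, crossbred median 339), fibroblast markers (18009 FPKM) and skeletal muscle fibre markers (10812 FPKM) of all fetuses, and the part of these in its values was not tested. These are descriptions of the litter, and no test between sows was set. Over all fetuses TCAP had a log2 fold change between genotypes of 0.27 (adjusted p = 0.616 from limma), although its crossbred median (172 FPKM) was below its Iberian median (199 FPKM). The TCAP locus (chromosome 12 from 22651244 to 22700900) is merged with STARD3. It covers 49657 bases, against 1239 for the RefSeq gene, so its values may not be those of TCAP alone.

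**Figure D4:**
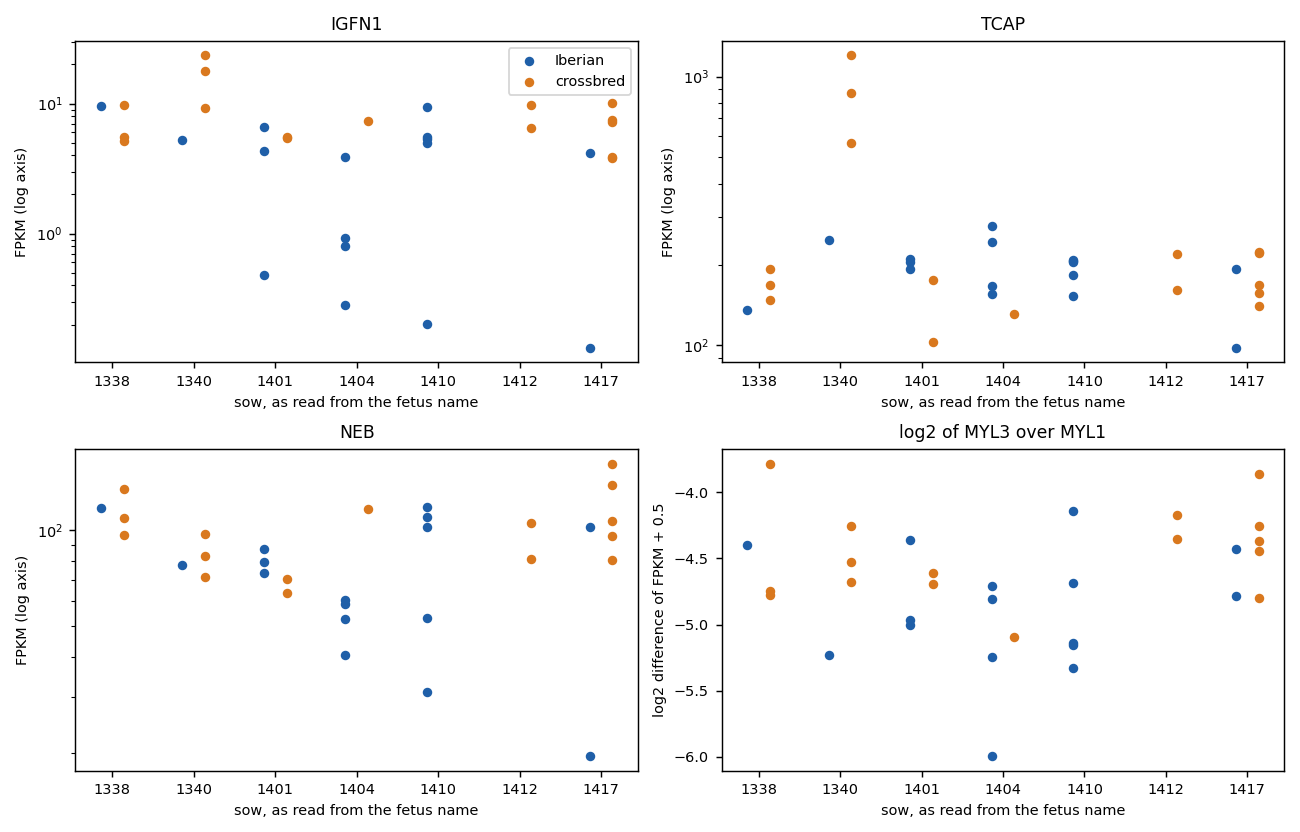
FPKM on a log axis of IGFN1, TCAP and NEB and the log2 ratio of MYL3 to MYL1 (vertical) by sow (horizontal), 1 point per fetus, blue for Iberian and orange for crossbred. TCAP exceeds 500 FPKM in the 3 crossbred fetuses of sow 1340 alone, and the 6 IGFN1 values below 1 FPKM are Iberian.

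Between the sexes, 0 of 38 genes passed in either genotype by limma, and most had a lower mean in females. In Iberian fetuses all 38 had a lower mean in females (median log2 difference -0.33, 2 genes with an unadjusted p under 0.05). Of 16414 loci tested, 0.116% were called, 1.23% had such a p in this direction and 45.6% had a higher mean in females. The 3 low fetuses are all Iberian females, and without them 24 of 38 were higher in females (median 0.043), a shift in the direction that their choice fixes. Without 1417F3L alone the median was -0.18. With the sow as a block it was -0.41, all 38 were lower in females and 7 genes had an unadjusted p under 0.05. In crossbred fetuses 36 of 38 were lower in females (median -0.34) and 16 had an unadjusted p under 0.05. Here 0.125% of 16843 loci were called, 9.69% had such a p in this direction and 45.4% had a higher mean in females. MYL2 ranged from 160.0 to 326 FPKM (median 201) in crossbred females and 243 to 647 FPKM (median 317) in crossbred males. The groups overlapped, and the log2 difference was -0.67 (adjusted p = 0.331 from limma). KLHL40 ranged from 29.8 to 55.7 FPKM (median 37.3) and 36.3 to 68.8 FPKM (median 58.5), with a difference of -0.52 (adjusted p = 0.331), and MYL4 had -0.78 (adjusted p = 0.331). TTN (-0.021) and NEB (-0.076), by contrast, had differences near 0 in crossbred fetuses. With median-of-ratios rescaling 8 of 38 were higher in crossbred females, and without sow 1340 the number with an unadjusted p under 0.05 was 4. With the sow as a block that number was 26, and 37 of 38 were lower in females (median -0.47). For these alternatives the share of all loci with such a p was not taken in either genotype. Their counts therefore have no share to be set against. The sex difference did not differ detectably between genotypes. None of 38 was called for the interaction and none had an unadjusted p under 0.05, where 0% of 17345 loci were called and 4.9% had such a p. The median interaction was -0.043. Without the 3 low females, all in one arm of this comparison, it was -0.37 and 7 genes had an unadjusted p under 0.05, none of them called. No share over all loci was taken for that count either. None of the 8 ratios differed by sex in either genotype (lowest exact permutation p = 0.0559, adjusted p = 0.895 over 16 tests).

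The 38 genes varied together over the fetuses. Over their 703 pairs the median Pearson r of log2(FPKM + 0.5) was 0.56 and 57.5% of pairs exceeded 0.5, against a median of 0.002 and 9.84% over pairs of all loci tested. The points share libraries, litters and the amount of muscle fibre, so these values carry no test. The median was 0.70 in Iberian and 0.40 in crossbred fetuses, 0.38 without the 3 low females and 0.65 after subtracting each sow's mean. ACTC1 (median r with the other 37 genes of 0.77), MYOM1 (0.77) and ACTN2 (0.75) followed the others most closely. LMOD2 (0.18), MYOZ2 (0.20) and XIRP2 (0.24) did so least, with TCAP (0.25) next. XIRP2 ranged from 9.42 to 60.7 FPKM (median 33.1) in Iberian and from 13.7 to 64.1 FPKM (median 31.9) in crossbred fetuses. MYOM1 ranged from 39.0 to 196 FPKM (median 129) and from 98.4 to 209 FPKM (median 165), respectively, in a locus merged with LPIN2.

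Clustering of the correlations gave a large branch of 32 genes and 2 small ones. MYL2, MYOZ2 and CSRP3, of which the first 2 are slow-fibre isoforms, formed one, and LMOD2, TCAP and PDLIM3 formed the other, whose mean was highest in the fetuses of sow 1340. The highest correlations were those of TTN with NEB (0.96), MYL4 with MYLPF (0.95) and MYLPF with MYOZ1 (0.95), and the lowest was that of TCAP with SMPX (-0.51). MYL4, the embryonic chain, thus followed the fast chain MYLPF more closely than it followed any other of the genes. Among loci with a gene symbol outside the 38 genes, those whose values over 32 fetuses were most like the mean of the 38 were HRC (r = 0.97), ARHGAP36 (0.96), MAMSTR (0.95), DDAH1 (0.95) and HHATL (0.94).

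**Figure D5:**
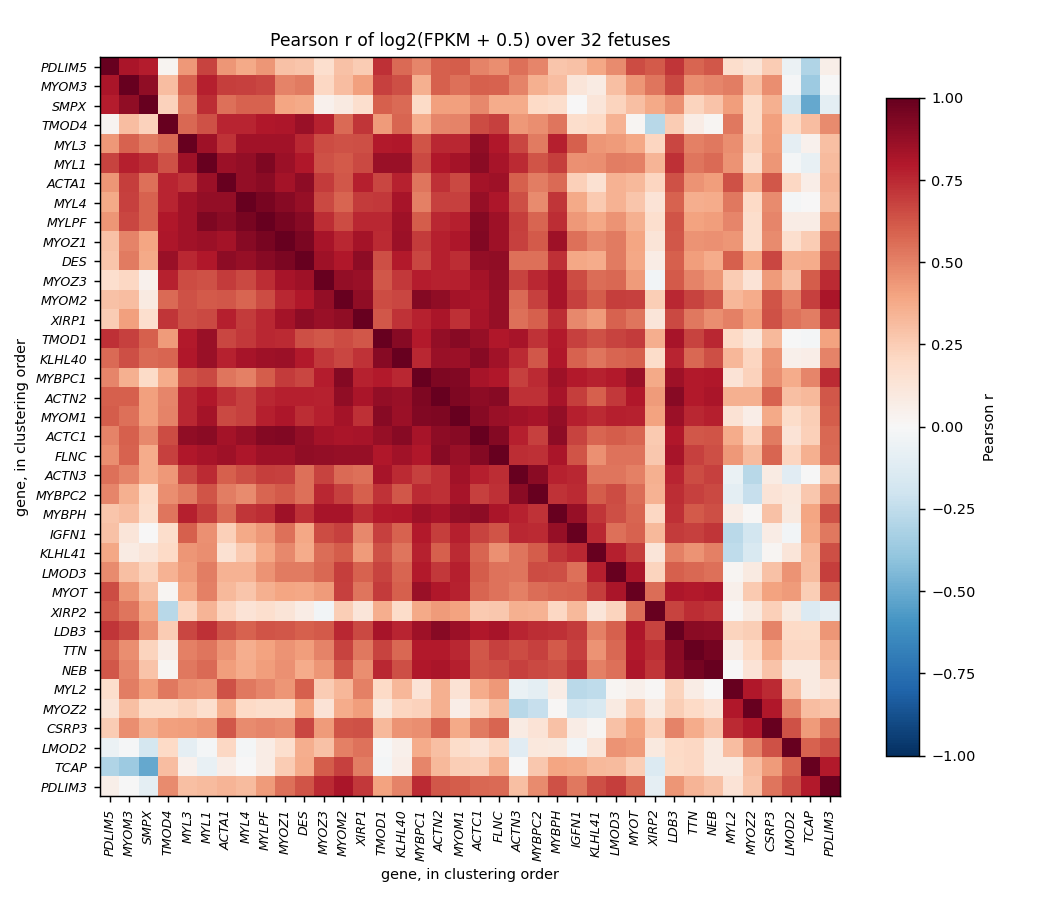
Pearson r of log2(FPKM + 0.5) over 32 fetuses (color) for all pairs of 38 genes, in clustering order on both axes. Most of the field is positive (median 0.56), and the last rows, MYL2, MYOZ2 and CSRP3 and then LMOD2, TCAP and PDLIM3, form the small branches, in which the median r of a gene with the other 37 lies between 0.18 (LMOD2) and 0.49 (PDLIM3).

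For 12 pairs with a known partnership or shared place the correlation was tested, with a permutation p (100000 resamples) adjusted over the 12, and 11 passed. The test is against an r of 0 and takes no account of the sow, and the median pair of the 38 genes already had an r of 0.56, so passing says nothing particular to a partnership. Of the 12 pairs, 8 had an r above that median and 4 below it. TTN and NEB had a Pearson r of 0.96 and a Spearman rho of 0.92 (adjusted p = 3e-05, where 1e-05 is the smallest raw p that the resamples can give). It was 0.92 without the 2 fetuses farthest from the TTN median and 0.89 without the 3 low females. These giant proteins were matched by position (TTN) and by Ensembl number (NEB). ACTC1 and MYL4, both expressed early in skeletal muscle, had r = 0.87 and rho = 0.92, and MYOM1 and MYOM2 had r = 0.83 and rho = 0.78 (permutation adjusted p = 3e-05 for both pairs). MYBPC1 and MYBPC2 had r = 0.75 (adjusted p = 3e-05), MYOZ1 and ACTN3, both of fast fibres, r = 0.69 (adjusted p = 7.2e-05), XIRP1 and CSRP3 r = 0.64 (adjusted p = 0.000171) and MYL2 and MYL3 r = 0.47 (adjusted p = 0.00756). The rho of these 4 pairs was 0.73, 0.68, 0.48 and 0.55. All 7 pairs also passed without the 3 low females, and their r without the 2 farthest fetuses lay between 0.38 and 0.92. The Spearman adjusted permutation p of the 7 lay between 3e-05 and 0.00792, and the raw Pearson p of the 11 passing pairs between 1e-05 and 0.00693.

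The nebulin partners gave r = 0.65 for NEB with KLHL40 (permutation adjusted p = 0.000171) and r = 0.58 for LMOD3 with KLHL40 (adjusted p = 0.000825), with rho of 0.49 and 0.54 (adjusted p = 0.0071 and 0.00266). Neither passed without the 3 low females (r = 0.38 and 0.30). The choice of these fetuses tends to lower every positive r, and the median over all 703 pairs was then 0.38, so this loss says nothing particular to the 2 pairs. NEB with KLHL41 had r = 0.51 (adjusted p = 0.00556) but rho = 0.070 (adjusted p = 0.701). Its r was 0.082 without 1417F3L and 1410F5L and it did not pass without 1417F3L alone (permutation adjusted p = 0.194), so that the relation rests on these fetuses. MYOT with FLNC had r = 0.54 (adjusted p = 0.00252) and rho = 0.26 (adjusted p = 0.185). Its r was 0.20 without 1417F3L and 1404F2L, and without 1417F3L alone the adjusted p was 0.116. TCAP with TTN, the cap and its partner, did not pass (r = 0.21, rho = 0.10, adjusted p = 0.244).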

How the data were processed

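The authors sequenced RNA of the longissimus dorsi of 32 fetuses in paired-end, unstranded reads. Per the labels they trimmed with Trim Galore, aligned to Sscrofa11.1 with TopHat2 2.1.0 and Bowtie2 2.2.7.0 (the paper names another Bowtie2 version) and quantified with Cufflinks 2.2.1 and Cuffdiff. The deposited table holds FPKM, with no read counts, so absolute depth is unknown and no counting interval is given.

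The members and lists were chosen with earlier results of these data known. Of the 38 genes, 32 were matched by symbol, 4 by Ensembl number and 2 (TTN and LDB3) by position. Of those matched by symbol, 9 lie in a locus merged with other names (MYOM1, MYBPH, MYL3, MYOZ1, MYOZ3, TCAP, TMOD4, MYOT and KLHL41). Where a symbol had several rows, the one with the highest mean was used. All members may be named, and values are given in full for members called, the 3 highest of each place in the sarcomere, the 5 with the largest genotype change, the 3 highest and 3 lowest in median correlation, and both genes of a passing ratio. TCAP, PDLIM3, MYOM3, SMPX, KLHL40 and MYL2 by sow or sex were added after their values were seen.

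The moderated test of limma 3.58.1, with a variance trend, was run in R 4.3.3 on log2(FPKM + 0.5). It covered every locus whose mean exceeded 0.5 FPKM in 1 or more of the groups, and p-values were adjusted over all of these by Benjamini-Hochberg. Ratios and correlations were tested by two-sided permutation (100000 resamples, exact for sex) with scipy 1.17.1, numpy 2.4.6 and pandas 2.3.3 in Python 3.11.15, figures were drawn with matplotlib 3.10.9, and the fits were tested on simulated data. Labels do not say whether samples were handled apart, so p-values measure the spread between these fetuses. Alternatives were pseudocounts of 0.1 and 1, median-of-ratios rescaling, a filter at 1 FPKM or none, robust variances (statmod 1.5.0) and a sex covariate. Others were no fold minimum, the sow as a block of fixed terms, sows with both genotypes only, and leaving out fetuses. Leaving out 1340F5L, leaving out sow 1340 with the 3 low females, the sow block without those females, and a median over members matched by name alone were chosen after seeing the data. Upstream windows were read from the RefSeq genome and annotation of Sscrofa11.1.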

Additional observations from a re-analysis of the deposited data

Results flagged for a closer look

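Within the 4 groups of 8 fetuses of one sex and genotype, 8 values in 152 gene and group combinations lay further from the rest of their group than Dixon's 95% limit allows, where chance flags about 1 in 20. In crossbred males, 1340F5L was the highest for TCAP (1199 FPKM, next 222) and PDLIM3 (164 FPKM, next 85.5), 1338F2L was the lowest for ACTC1 (4070.0 FPKM, next 6211) and MYL3 (96.3 FPKM, next 186), and 1338F4L was the lowest for MYBPC2 (2.73 FPKM, next 9.21). In Iberian females, 1417F3L was the lowest for TCAP (98.1 FPKM, next 167) and MYOT (63.1 FPKM, next 138). In crossbred females, 1340F8L was the highest for LMOD3 (152 FPKM, next 95.7). Since 3 fetuses of sow 1340 were high for TCAP, only the single one among the males stood out by this measure.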

How the results depend on the processing

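No paired analysis was possible because the labels give no replicate numbers shared by the genotypes, and the sow served as the block instead. Sow 1410 (5 Iberian fetuses, no crossbred) and sow 1412 (2 crossbred, no Iberian) hold 1 genotype each. They give no comparison of genotypes in the block fit or in permutation within sows, so the higher p values there also come with fewer fetuses compared. The number of members called between genotypes was 1 (IGFN1) and became 0 with a pseudocount of 0.1, without a filter, with sow as a block, without the 3 low females, without sow 1340, without 1340F5L, and in both settings that joined these. It was 0 to 2 when single fetuses were left out (IGFN1, or IGFN1 with MYBPH), and stayed 1 in the other 7 alternatives. Calls also fell over the whole table, from 227 of 16750 loci to 48 of 16750 with sow as a block and 53 of 16715 without the 3 low females. The loss of the call in these 2 settings is therefore not particular to the members. For the other settings the share over all loci is not given here. The number of ratios passing was 1 and became 0 without the 3 low females, without sow 1340 or with permutation within sows (0 to 2 without single fetuses). The number of correlated pairs passing was 11, became 7 without the 3 low females and was 9 to 11 without single fetuses. Without those females the median r over all 703 pairs of members also fell, from 0.56 to 0.38, a direction that their choice favours. No member was called for sex or the interaction under any setting run. The median difference between genotypes was 0.21 to 0.32 when single fetuses were left out and 0.09 to 0.28 in the other alternatives except the sow block without the 3 females (-0.028). In that setting 17 of 38 members changed sign, against 7 without the 3 females and 2 (DES and TMOD4) with sow as a block. DES changed sign with sow as a block (-0.070), without the 3 females (-0.011), in sows with both genotypes (-0.024), in the sow block without the 3 females (-0.32) and without these and sow 1340 (-0.061). XIRP2 changed sign without the 3 females (-0.063) and in the sow block without them (-0.050), and in that last setting the 17 included MYLPF (-0.091), MYL1 (-0.067), ACTA1 (-0.17), MYOZ1 (-0.16) and KLHL41 (-0.0067, and -0.0060 without the 3 females and sow 1340). The cause was not tested. IGFN1 had 6 fetuses under 1 FPKM, and the depth behind these values is unknown.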
